A study of Homo sapiens with 18 samples.

Results

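The cadherin superfamily comprises membrane proteins with repeated extracellular cadherin domains that bind calcium, and 49 of its genes were measured here in cells with an inducible ERN2 transgene. The genes were taken by symbol, as those named CDH with a number or PCDH with any ending, plus CELSR1 to CELSR3, FAT1 to FAT4 and DCHS1, without PCDH11Y. A gene was kept if at least 10 reads were counted on it in 3 or more of 18 libraries. Of 25435 rows in the count table, 103 carry such a symbol, and 49 of these met the count minimum. Of the 54 that did not, 45 reached 10 counts in no library and 9 in 1 or 2, while 5 of the 49 reached it in only 3 or 4. Among the genes just inside the minimum were CDH22 and PCDHGC5, with 10 counts in 3 libraries each and highest counts of 17 and 13, and just outside it were CDH18 and PCDHGB3, with 10 counts in 2 libraries each and highest counts of 14 and 20.

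HEK293 is a human embryonic kidney cell line, and HEK293doxERN2 is a derived line in which doxycycline switches on a FLAG-tagged human ERN2 transgene. ERN2, also called IRE1b, is an endoplasmic reticulum (ER) stress sensor that cuts RNA and is normally made in mucus-producing epithelia. Doxycycline was present for 24 hours at 0, 10 or 100 ng/mL, and in each case DMSO vehicle or 200 nM thapsigargin, which blocks the calcium pump of the ER and causes ER stress, was present for 3 hours. This gave 6 groups of 3 libraries: no, low and high ERN2, each with vehicle or with thapsigargin. All 18 libraries carry the transgene, and cells given doxycycline without it were not analysed here, so that the dose of doxycycline and the level of ERN2 cannot be told apart. The sources used here do not say whether libraries of a group came from separate cultures, so p-values measure only the spread between these libraries, which may be technical.

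Libraries held between 14876416 and 24652240 counted reads. Reads were scaled to CPM, a count brought to the same total in every library, with trimmed-mean (TMM) factors over all 18 libraries, and levels are given on this scale. With vehicle, ERN2 stood at 9.10, 6.57 and 7.71 CPM without doxycycline, at 22.5, 27.1 and 55.9 CPM at 10 ng/mL and at 252, 309 and 249 CPM at 100 ng/mL. With thapsigargin it stood at 14.2, 10.4 and 12.0 CPM, 32.1, 53.9 and 112 CPM and 272, 175 and 175 CPM in the same order, so the third library at 10 ng/mL had more ERN2 than the other two in both treatments. The text on RNA extraction in the sample labels names colon crypt cells, whereas the other labels name the cell line. All 6 genes chosen to mark HEK293 cells (PAX2, VIM, NEFL, NEFM, KRT8 and KRT18) had reads in every library, and their summed level was 2539.9 to 2733 CPM with vehicle at 0 ng/mL and 2759 to 3531 CPM with vehicle at 100 ng/mL, where no library overlapped those at 0. With thapsigargin it was 2009.9 to 2398 CPM at 0 and 2467 to 2583 CPM at 100 ng/mL. Most of this sum came from VIM (1336 to 2372 CPM over all libraries) and KRT8 (380 to 755 CPM). PAX2 had only 17 to 89 reads, or 1.20 to 4.35 CPM. Of 9 colon markers, 7 (VIL1, CDX1, LGALS4, MUC2, KRT20, CDH17 and FABP1) had at most 9 reads in any library. EPCAM and CDX2, the rest of that list, made up most of its summed 19.1 to 27.3 CPM with vehicle alone and 12.6 to 21.7 CPM with thapsigargin at 100 ng/mL. Over all libraries EPCAM stood at 7.04 to 22.3 CPM, above PAX2 throughout, and CDX2 at 3.36 to 8.83 CPM. Markers of endothelium summed to 3.71 to 6.10 CPM with vehicle alone and 2.82 to 4.57 CPM at 100 ng/mL, of fibroblasts to 19.5 to 25.7 and 17.0 to 23.8 CPM, and of leukocytes to 10.8 to 14.4 and 7.71 to 8.76 CPM, where CDH5, PECAM1, COL1A2, THY1, PDGFRB, DCN, PTPRC and CD3E had at most 9 reads in any library. The other members of these 3 lists had more: KDR 36 to 168 reads and VWF 0 to 53 among endothelial markers, COL1A1 187 to 627 among fibroblast markers, and CD68 109 to 287 among leukocyte markers. The part of these markers in the results was not tested.

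Classical cadherins such as CDH1 (E-cadherin) and CDH2 (N-cadherin) join cells through calcium-dependent binding of their outer domains and hold the actin cytoskeleton through catenins at their inner ends. Protocadherins form a larger branch, of which the alpha, beta and gamma genes lie in tandem clusters where each variable exon has its own promoter, and the gamma variable exons splice to the same constant exons. CELSR proteins (flamingo cadherins) and the giant FAT and DCHS cadherins serve planar polarity, the alignment of cells within a sheet. All are made at the ER, which they enter through a signal peptide, and their cadherin repeats bind calcium. Of the 49 genes, 15 were CDH genes, 9 non-clustered protocadherins, 16 gamma protocadherins, 3 CELSR genes, 4 FAT or DCHS genes, and 1 each belonged to the alpha and beta clusters.

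The 8 genes with the highest mean over the 18 libraries were CDH2, FAT1, CELSR2, PCDH7, PCDH19, CELSR1, FAT4 and CDH11. Divided by transcript length, the mean level with vehicle and no doxycycline was 74.5 CPM per kilobase for CDH2, against 17.9 for FAT1, 17.4 for PCDH7, 14.7 for CELSR2, 11.0 for PCDH19 and 9.32 for CELSR1. CDH1, the epithelial cadherin, was at 0.952 CPM per kilobase, and CDH17, the cadherin of intestinal epithelium, had at most 1 read in a library and was not among the 49. In 19 genes the mean over all libraries was at least 10 CPM, and in 14 it was below 1 CPM.

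Induction of ERN2 with 100 ng/mL doxycycline was accompanied by lower levels of cadherin superfamily genes. Counts were compared with edgeR's quasi-likelihood test over all genes that passed its filter on low counts, and p was adjusted by Benjamini and Hochberg's method (Benjamini-Hochberg) across the genes of a fit. A gene with adjusted p under 0.01 is referred to as called. With vehicle, 23 of the 43 cadherin genes tested were called lower at 100 than at 0 ng/mL, or 53.5%, and 0 were called higher. Over all 14444 genes tested, 7.49% were called lower and 0.838% higher. The median log2 fold change of the cadherin genes was -0.90, beside -0.0068 for all genes, and 41 of 43 had a value below 0. DESeq2 called 25 lower and 0 higher, beside 9.0% of its genes lower. In bulk RNA, a lower level in every cell and fewer cells that express a gene cannot be told apart. The 6 genes not tested were CDH15, CDH22, PCDHGA1, PCDHGA6, PCDHGA12 and PCDHGC5, each with a mean below 1 CPM. Because a gene can pass the filter through the group in which it is high, the genes with at least 10 reads in all 18 libraries were also counted: 22 of these 30 were called lower, with a median of -0.98. The share over all genes that meet this condition was not counted, so the 7.49% is not its background.

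Cells that also received thapsigargin had lower levels of these genes at the higher dose of doxycycline as well. With thapsigargin, 27 of 41 cadherin genes tested (65.9%) were called lower at 100 than at 0 ng/mL and 0 were called higher, where 9.0% of all 14358 genes tested were called lower and 1.53% higher. The median log2 fold change was -1.31, beside 0.044 over all genes. The 3 libraries at 100 ng/mL all lay below the 3 without doxycycline in 33 of 43 cadherin genes with vehicle and in 37 of 41 with thapsigargin, whereas 16.1% and 20.4% of all genes tested showed this. The comparisons with vehicle and with thapsigargin share no libraries. Of the called genes, 22 were called lower in both, PCDH20 with vehicle alone, and CDH6, CDH11, PCDH1, PCDHAC2 and PCDHGA7 with thapsigargin alone. Whether the effect of dose differed between treatments was tested as an interaction, given with the response to thapsigargin. Calls by level fell off at low depth: 16 of 19 genes with a mean of at least 10 CPM were called with vehicle, 7 of 16 of those at 1 to 10 CPM, and 0 of 8 tested below 1 CPM. Shares of all genes at these levels were not counted. Across all genes, log2 fold change correlated with GC content at a Spearman rho of 0.32 with vehicle and -0.39 with thapsigargin (12733 and 12671 genes of the same libraries, not independent points). After correction of each library for GC content and length, 26 cadherin genes were called lower with vehicle (11.0% of all genes) and 27 with thapsigargin (12.9%). When each library was left out in turn, 18 of the 23 calls with vehicle and 19 of the 27 with thapsigargin held in all 6 fits.

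**Figure D1:**
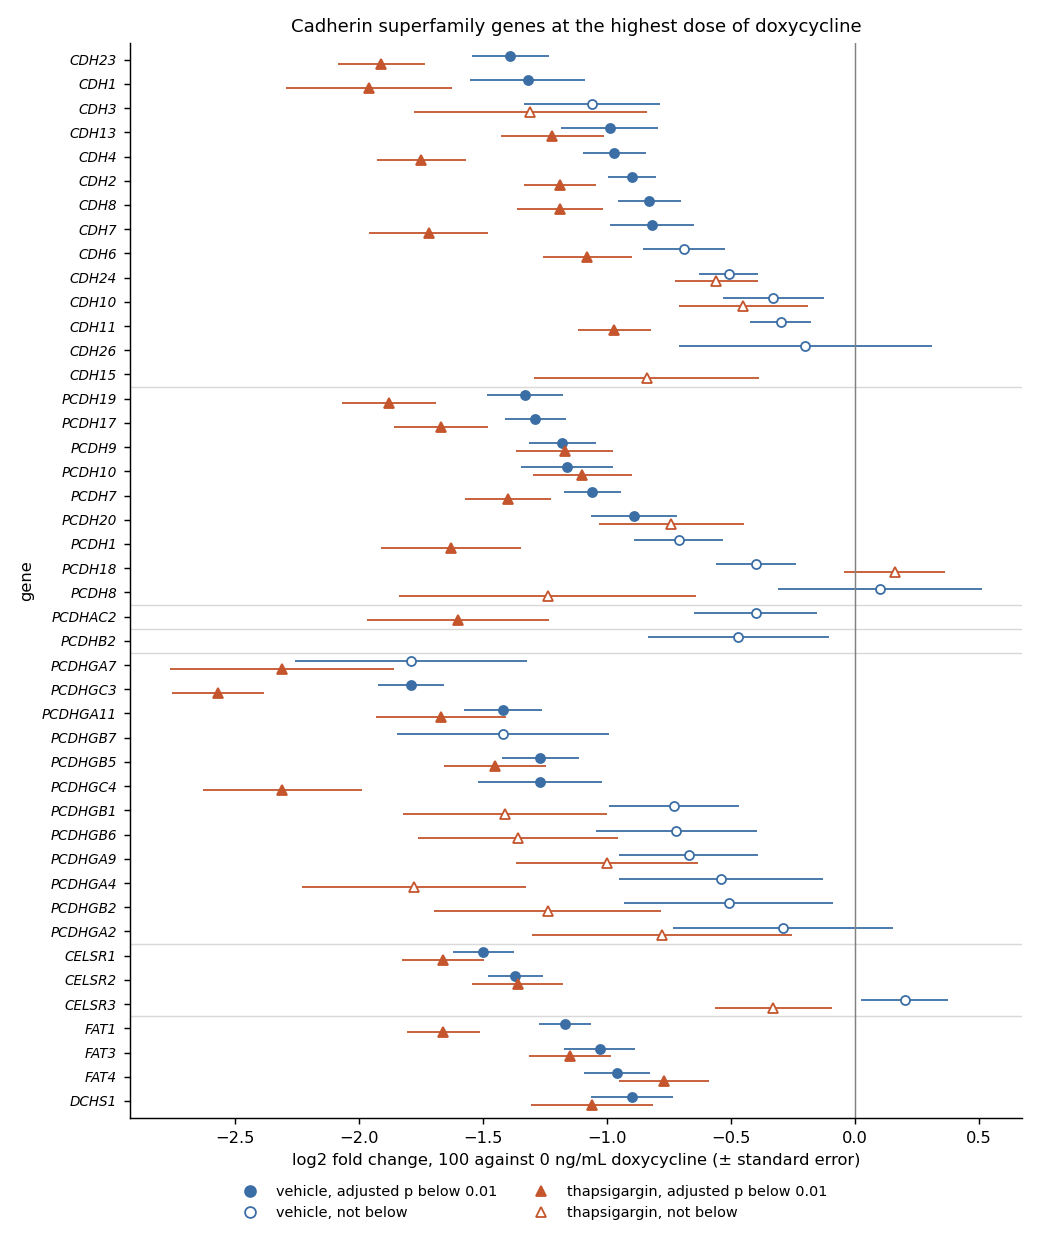
Log2 fold change (x axis, ± standard error) of each cadherin superfamily gene tested (y axis, grouped by subfamily) between 100 and 0 ng/mL doxycycline, with vehicle (circles) or thapsigargin (triangles); filled symbols passed the adjusted p threshold of 0.01. Filled symbols all lie left of 0, from PCDHGC3 at -1.79 and -2.57 to CDH7 at -0.82 with vehicle and FAT4 at -0.77 with thapsigargin.

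**Figure D2:**
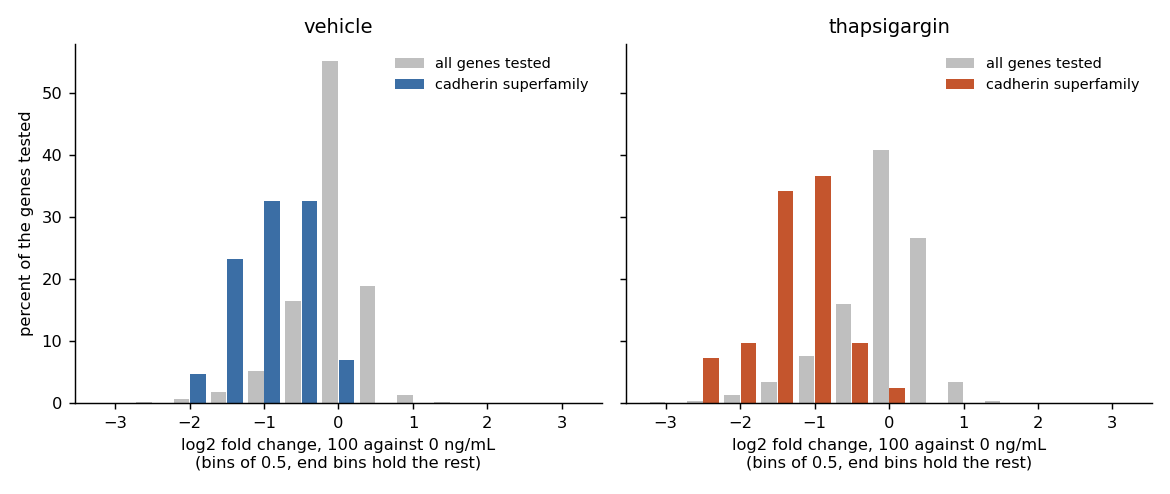
Percent of genes tested (y axis) per bin of log2 fold change between 100 and 0 ng/mL doxycycline (x axis), for all genes (grey) and cadherin superfamily genes (colour), with vehicle on the left and thapsigargin on the right. All genes peak at 0, and the cadherin genes lie to the left, with medians of -0.90 and -1.31.

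Among classical and other CDH genes, 7 of 13 tested were called lower at 100 ng/mL with vehicle and 9 of 13 with thapsigargin, with medians of -0.83 and -1.19. For this and the other subfamilies below, the shares over all genes tested were 7.49% with vehicle and 9.0% with thapsigargin. CDH2 (chr18:27950966-28177446, minus strand, GRCh38) measured 312, 332 and 324 CPM without doxycycline, 280.5, 273 and 219 at 10 ng/mL and 180.3, 166 and 187 at 100 ng/mL with vehicle. At 100 ng/mL every library lay below those of both other doses, and the level fell to 53.5% of that without doxycycline (log2 fold change -0.90 ± 0.0968 (SE), edgeR adjusted p = 3.56e-05). With thapsigargin the values were 303, 338 and 296 CPM without doxycycline, 289, 292 and 211 at 10 ng/mL and 121, 130.1 and 161 at 100 ng/mL, again with no overlap between 0 and 100 ng/mL (-1.19 ± 0.146, adjusted p = 0.000107). CDH1 (chr16:68737225-68835548, plus strand) had far fewer reads, 7 to 126 per library, and measured 5.10, 5.26 and 3.60 CPM without doxycycline, 4.60, 4.81 and 4.17 at 10 ng/mL and 2.30, 1.65 and 1.86 at 100 ng/mL with vehicle, so that 0 and 10 ng/mL overlapped and 100 ng/mL lay below both (-1.32 ± 0.231, adjusted p = 0.00167). With thapsigargin CDH1 measured 3.63, 4.11 and 3.70 CPM without doxycycline, 4.98, 3.82 and 2.67 at 10 ng/mL and 1.19, 0.493 and 1.19 at 100 ng/mL (-1.96 ± 0.335, adjusted p = 0.00126).

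CDH23, a cadherin of the tip links of hair cells, fell from 43.6, 36.1 and 33.5 to 15.3, 16.6 and 12.4 CPM with vehicle (-1.39 ± 0.155, adjusted p = 4.59e-05) and from 34.4, 34.8 and 29.3 to 9.13, 8.80 and 8.31 CPM with thapsigargin (-1.91 ± 0.175, adjusted p = 1.48e-05). In GENCODE 29, 18.9% of its exon bases lie opposite exons of C10orf105, and whether counting used strand is not given in the sources used here, so reads of the pair may not be told apart. CDH4 (R-cadherin, a close relative of CDH2) had log2 fold changes of -0.97 ± 0.128 with vehicle and -1.75 ± 0.180 with thapsigargin, with adjusted p = 0.000178 and 2.98e-05. CDH7, CDH8 and CDH13, the last a cadherin that is anchored by lipid and lacks an inner domain, were called lower in both treatments, at log2 fold changes of -0.82 to -0.99 with vehicle. The vehicle call of CDH7 was kept in 1 of 6 fits that left out a library (without replicate 2 at 100 ng/mL) and lost after correction for GC content and length (adjusted p = 0.0966), and that of CDH13 was lost in 3 of 6 (without replicates 1 or 2 at 0 ng/mL or 3 at 100 ng/mL). CDH11, a cadherin of mesenchymal cells, measured 42.0, 46.4 and 46.6 CPM without doxycycline, 43.3, 50.8 and 39.0 at 10 ng/mL and 34.0, 40.4 and 38.3 at 100 ng/mL with vehicle. The libraries at 100 ng/mL lay below those without doxycycline, but the difference was not called (-0.30 ± 0.122, adjusted p = 0.123). With thapsigargin it measured 58.7, 53.3 and 59.9 CPM without doxycycline, 56.7, 54.6 and 47.9 at 10 ng/mL and 28.6, 27.9 and 31.6 at 100 ng/mL, and the level at 100 ng/mL was 51.2% of that without doxycycline (-0.97 ± 0.146, adjusted p = 0.000518). CDH10, CDH24 and CDH3 were called in neither treatment, at -0.33, -0.51 and -1.06 with vehicle, and CDH26 and CDH15 had means below 1 CPM.

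**Figure D3:**
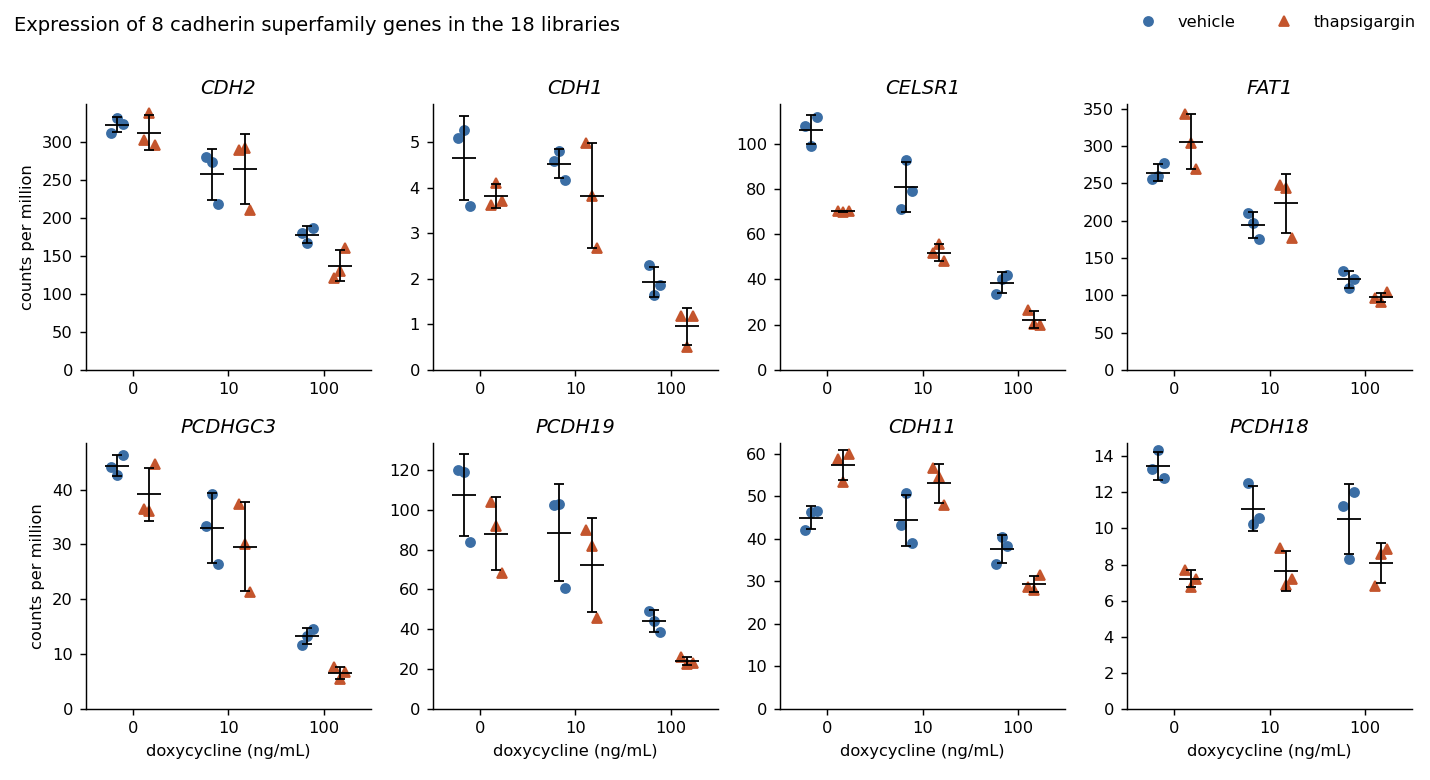
CPM (y axis, from 0) of 8 cadherin superfamily genes in each of the 18 libraries at 0, 10 and 100 ng/mL doxycycline (x axis), with vehicle (circles) or thapsigargin (triangles); bars are means ± SD of 3 libraries. The first 6 genes were called lower at 100 ng/mL in both treatments, CDH11 with thapsigargin alone, and PCDH18 in neither.

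Planar polarity cadherins fell with 2 of 3 CELSR genes and 4 of 4 FAT and DCHS genes called lower in each treatment. CELSR1 (chr22:46360834-46537170, minus strand) measured 108, 99.2 and 112 CPM without doxycycline, 71.1, 92.8 and 78.9 at 10 ng/mL and 33.5, 40.4 and 41.9 at 100 ng/mL with vehicle. Its 3 doses did not overlap, and at 100 ng/mL it was 35.3% of the level without doxycycline (-1.50 ± 0.123, adjusted p = 3.87e-06). With thapsigargin it measured 70.1, 69.9 and 70.4 CPM without doxycycline, 51.6, 55.7 and 48.3 at 10 ng/mL and 26.6, 20.5 and 19.6 at 100 ng/mL (-1.66 ± 0.166 between 0 and 100 ng/mL, adjusted p = 2.64e-05). CELSR2, the most abundant of the 3 genes, fell from 159, 145 and 159 to 59.2, 66.9 and 57.8 CPM with vehicle (-1.37 ± 0.110, adjusted p = 3.34e-06). CELSR3, a gene of neurons, was not called. It measured 7.20, 5.59 and 6.97 CPM without doxycycline, 6.44, 7.27 and 8.12 at 10 ng/mL and 7.15, 8.94 and 7.17 at 100 ng/mL with vehicle, with overlapping groups (0.20 ± 0.176, adjusted p = 0.481), and its value with thapsigargin was -0.33 ± 0.236 (adjusted p = 0.344).

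FAT1, a giant cadherin that acts on growth control and cell migration, measured 256, 260.0 and 277 CPM without doxycycline, 209.8, 197 and 175 at 10 ng/mL and 132, 110.1 and 122 at 100 ng/mL with vehicle. With thapsigargin it measured 343, 304 and 269.8 CPM without doxycycline, 248, 244 and 177 at 10 ng/mL and 96.5, 91.3 and 104 at 100 ng/mL. Its level at 100 ng/mL lay below both other doses in every library of each treatment, at -1.17 ± 0.104 against no doxycycline with vehicle (adjusted p = 7.59e-06) and -1.66 ± 0.146 with thapsigargin (adjusted p = 1.15e-05). FAT3 had log2 fold changes of -1.03 ± 0.144 and -1.15 ± 0.165 in turn with vehicle and thapsigargin, with adjusted p = 0.000273 and 0.000347. FAT4, the receptor to which DCHS1 binds on neighbouring cells, measured 69.5, 77.5 and 74.97 CPM without doxycycline, 60.5, 51.7 and 45.1 at 10 ng/mL and 46.8, 33.5 and 37.0 at 100 ng/mL with vehicle (-0.96 ± 0.134, adjusted p = 0.000261). Its call with thapsigargin (-0.77 ± 0.181, adjusted p = 0.00982) was lost in 4 of 6 fits that left out 1 library, without replicates 1 or 2 at 0 ng/mL or 2 or 3 at 100 ng/mL, at adjusted p of 0.0768, 0.0235, 0.0326 and 0.0152. DCHS1 had -0.90 ± 0.166 with vehicle and -1.06 ± 0.245 with thapsigargin, and its call held in 4 and 1 of the 6 such fits, being lost with vehicle without replicate 1 at 0 or replicate 3 at 100 ng/mL and kept with thapsigargin only without replicate 1 at 100 ng/mL.

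Of 9 non-clustered protocadherins, 6 were called lower in each treatment. PCDH19, a protocadherin that works together with CDH2 and underlies an epilepsy when mutated, measured 120.0, 119 and 83.8 CPM without doxycycline, 102, 103 and 60.7 at 10 ng/mL and 49.3, 44.2 and 38.4 at 100 ng/mL with vehicle (-1.33 ± 0.153, adjusted p = 5.82e-05). With thapsigargin it measured 104, 91.7 and 68.1 CPM without doxycycline, 89.9, 81.6 and 45.5 at 10 ng/mL and 26.1, 22.7 and 23.0 at 100 ng/mL (-1.88 ± 0.189, adjusted p = 2.68e-05). At 100 ng/mL it was lowest in every library, and the third library was the lowest within 0 and 10 ng/mL in both treatments. PCDH7, the most abundant protocadherin, fell from 106, 127 and 119 to 53.3, 58.7 and 62.4 CPM with vehicle (-1.06 ± 0.115, adjusted p = 3.94e-05). PCDH17, a delta protocadherin of neurons, fell from 32.2, 33.3 and 30.2 to 13.6, 13.4 and 13.4 CPM (-1.29 ± 0.123, adjusted p = 1.43e-05), and PCDH9, a related gene, from 49.6, 53.7 and 42.3 to 24.1, 19.6 and 22.4 CPM (-1.18 ± 0.135, adjusted p = 5.45e-05). PCDH10 was called lower in both treatments, at -1.16 and -1.10. With thapsigargin its call was lost without replicate 1 at 0 ng/mL or replicate 2 at 100 ng/mL, that of PCDH9 without the latter, and that of PCDH1 without the former.

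PCDH18 was called in neither treatment, and PCDH20 with vehicle alone. PCDH18 measured 13.3, 14.3 and 12.8 CPM without doxycycline, 12.5, 10.2 and 10.6 at 10 ng/mL and 11.3, 8.32 and 12.0 at 100 ng/mL with vehicle, where 0 and 100 ng/mL did not overlap but the difference missed the threshold (-0.40 ± 0.162, adjusted p = 0.121). With thapsigargin it measured 7.69, 6.78 and 7.18 CPM without doxycycline, 8.93, 6.86 and 7.19 at 10 ng/mL and 6.80, 8.59 and 8.88 at 100 ng/mL, with overlapping groups (0.16 ± 0.203, adjusted p = 0.611). PCDH20 fell from 10.3, 12.3 and 9.71 to 6.31, 4.90 and 6.80 CPM with vehicle (-0.89 ± 0.174, adjusted p = 0.0036), and this call was lost without vehicle replicate 1 (adjusted p = 0.0102) or 2 (adjusted p = 0.0170) at 0 ng/mL. In GENCODE 29, 95.8% of the exon bases of PCDH20 are shared with AL592490.1 on the same strand, so its reads are uncertain. PCDH8 had a mean below 1 CPM and gave 0.10 ± 0.412 with vehicle (adjusted p = 0.889).

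Gamma protocadherins included the gene with the largest called fall in each treatment, PCDHGC3. The gamma genes lie in tandem on chromosome 5, and each variable exon has a promoter of its own. RefSeq promoters (250 bases before to 50 after the start, GRCh38.p14) matched 14 of the 16 gamma genes here, and 9 of the 14 held the letters GCCGCTG, against 2 of 19 other cadherin superfamily genes with a promoter and 13.1% of all 27305 genes with a RefSeq promoter (both strands searched, overlap with other motifs not examined). The letters were picked from these promoters, so their share among the gamma genes is a description. The 57 bases around them are shown for the 5 genes called lower in either treatment that hold them, then for PCDHGB1 and PCDHGA9, which were not called, all on the plus strand with the shared letters in capitals.
PCDHGC3 (chr5:141475869-141475925, element 72 bases before the start): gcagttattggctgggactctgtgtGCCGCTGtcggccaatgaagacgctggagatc
PCDHGC4 (chr5:141484941-141484997, element 64 bases before the start): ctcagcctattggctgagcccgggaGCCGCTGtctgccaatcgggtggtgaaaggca
PCDHGB5 (chr5:141397852-141397908, element 70 bases before the start): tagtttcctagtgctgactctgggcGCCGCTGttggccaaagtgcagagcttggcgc
PCDHGA11 (chr5:141420961-141421017, element 65 bases before the start): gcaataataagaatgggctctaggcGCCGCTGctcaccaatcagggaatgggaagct
PCDHGA7 (chr5:141382638-141382694, element 79 bases before the start): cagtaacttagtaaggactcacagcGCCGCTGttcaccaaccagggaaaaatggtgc
PCDHGB1 (chr5:141350014-141350070, element 60 bases before the start): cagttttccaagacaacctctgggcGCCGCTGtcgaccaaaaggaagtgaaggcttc
PCDHGA9 (chr5:141402703-141402759, element 50 bases before the start): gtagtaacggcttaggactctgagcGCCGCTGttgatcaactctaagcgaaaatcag
The letters stood in promoters of called and uncalled genes, and PCDHGA1, which was too low to test, and PCDHGB6, which was not called, held them too.

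PCDHGC3 (chr5:141475947-141512979, plus strand, GRCh38) measured 44.2, 42.6 and 46.4 CPM without doxycycline, 33.3, 39.3 and 26.4 at 10 ng/mL and 11.7, 13.3 and 14.6 at 100 ng/mL with vehicle. The libraries at 100 ng/mL lay far below the rest, at 28.9% of the level without doxycycline (-1.79 ± 0.132, adjusted p = 1.62e-06). With thapsigargin it measured 36.5, 36.2 and 44.7 CPM without doxycycline, 37.5, 30.0 and 21.3 at 10 ng/mL and 7.59, 5.35 and 6.76 at 100 ng/mL, and 16.9% was left at 100 ng/mL (-2.57 ± 0.186, adjusted p = 3.26e-06). PCDHGB5 fell from 19.1, 20.8 and 15.5 to 7.82, 8.40 and 7.44 CPM with vehicle (-1.27 ± 0.155, adjusted p = 0.0001), and PCDHGA11 from 14.4, 14.5 and 13.6 to 4.69, 5.52 and 6.11 CPM (-1.42 ± 0.156, adjusted p = 4.17e-05). In all, 4 of 12 gamma genes tested were called lower with vehicle and 5 of 11 with thapsigargin, and none of those tested had a value above 0 (medians -1.0 and -1.45). The call of PCDHGC4 with vehicle was lost without replicate 1 at 0 or replicate 3 at 100 ng/mL, and that of PCDHGA7 with thapsigargin without replicates 1 or 2 at 0 or replicate 2 at 100 ng/mL. The only alpha member, PCDHAC2, was called with thapsigargin (-1.6 ± 0.367, adjusted p = 0.00832), in 1 of 6 fits that left out 1 library (without replicate 1 at 100 ng/mL), and PCDHB2 of the beta cluster was below 1 CPM.

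Reads on gamma genes cannot be fully assigned to one of them. Each gamma gene here shares 2181 exon bases with the other gamma genes, or 27.6 to 45.9% of its exon bases in GENCODE 29, which are the constant exons at the end of the transcript. A stretch of coding sequence shows this: the last site with the letters CTGCAG (in capitals) is the same in both genes, at coding bases 2647 to 2676 of PCDHGC3 and 2614 to 2643 of PCDHGB5.
PCDHGC3: ccccagttcaccCTGCAGcacgtgcccgac
PCDHGB5: ccccagttcaccCTGCAGcacgtgcccgac
Summed over the 16 gamma genes, so that a split of reads among these 16 has no effect, the level was 94.4, 93.4 and 89.8 CPM with vehicle and no doxycycline, 76.5, 86.3 and 55.9 CPM at 10 ng/mL and 34.5, 36.2 and 35.8 CPM at 100 ng/mL. Shared reads that were dropped, or given to gamma genes outside the 16, would be missing from the sum. With thapsigargin the sums were 75.5, 76.6 and 77.0 CPM without doxycycline, 73.9, 64.1 and 43.5 CPM at 10 ng/mL and 20.4, 17.5 and 19.99 CPM at 100 ng/mL. PCDHGC3 made up 45.6 to 51.7% of the sum without doxycycline and 33.9 to 40.8% at 100 ng/mL with vehicle, and with thapsigargin 47.2 to 58.1% and 30.5 to 37.1%.

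CTGCAG is the sequence known from RNA sites that IRE1 enzymes cut. It reads the same on both strands, and it was looked for in coding sequences. It occurred in 47 of 49 cadherin superfamily genes (95.9%), and in 71.1% of 12733 tested genes with a coding sequence, whose median coding length was 1461 bases against 2802 for the 43 cadherin genes. Per kilobase of coding sequence, the median was 1.03 in the cadherin genes and 0.864 in all. CDH6 and CDH11 hold none in their coding sequence, and both were called lower with thapsigargin (CDH6 not without replicate 2 at 100 ng/mL). Their coding sequences have 2370 and 2388 bases and their longest transcripts 8476 and 6874. Bases outside the coding sequence were not searched. CDH1 holds 1, inside its signal peptide region near the start, and CDH2 holds 5, shown here as 30-base windows with their coding positions to set a gene with a lone site beside one with several.
CDH1, 31 to 60: ctgctgctgctgCTGCAGgtctcctcttgg
CDH2, 215 to 244: agagcagtgagcCTGCAGattttaaggtgg
CDH2, 1376 to 1405: tccttactgttgCTGCAGaaaatcaagtgc
CDH2, 1759 to 1788: ggaacaggaacgCTGCAGatctatttactt
CDH2, 2356 to 2385: gacttgagccagCTGCAGcagcctgacact
CDH2, 2459 to 2488: atccggtccgatCTGCAGccccacaccctg
Genes with many and few sites were among those that fell. DCHS1, with 19, had a log2 fold change of -0.90 with vehicle, CELSR3, with 13, had 0.20, and PCDHGC3, with 1, had -1.79. Spearman's rho between log2 fold change and sites per kilobase was 0.14 over 43 cadherin genes with vehicle and -0.05 over 41 with thapsigargin. Over all genes it was 0.11 and -0.21, where genes share libraries and are not independent points. A match of letters says nothing of whether the RNA is cut there.

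Most cadherin superfamily genes encode a hydrophobic segment near the amino terminus, as signal peptides do, and so the genes were also set beside others that do. A segment was counted where 8 residues in a row among the first 40 had a mean Kyte-Doolittle hydrophobicity of at least 2.5. By this rule 36 of 49 cadherin genes had a segment and 13 did not. Signal peptides below the threshold are missed, so genes without the segment may still encode one. With vehicle, 20 of 30 cadherin genes with the segment were called lower at 100 ng/mL (66.7%), while 595 of 1972 genes with it in the whole table were (30.2%). Among genes without the segment, 3 of 13 cadherin genes and 4.05% of all genes were called lower. With thapsigargin, 23 of 29 cadherin genes with the segment (79.3%) and 34.5% of all genes with it were called lower, against 4 of 12 cadherin genes and 5.20% of all genes without it. The median log2 fold changes with the segment were -1.0 for cadherin genes and -0.41 for all genes with vehicle, and -1.36 and -0.65 with thapsigargin. Cadherin genes without the segment had medians of -0.72 and -1.27, and all genes without it 0.015 and 0.09. The differences between these shares and medians were not tested.

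At 10 ng/mL most group means stood between those of the other doses, with differences that fell short of the threshold. Group means fell from 0 to 10 and again to 100 ng/mL in 34 of 49 genes with vehicle and in 39 with thapsigargin, and rose with each dose in 1 and 2. With vehicle, 0 of 43 genes tested were called lower at 10 than at 0 ng/mL and 0 higher, beside 0.0552% and 0.138% of all 14497 genes. At an unadjusted p under 0.05 edgeR had 11 lower (16.5% of all genes) and 0 higher, and DESeq2 called 1, FAT1 (2.31% of the genes for which it gave an adjusted p). The libraries of both doses did not overlap, with 10 ng/mL lower, in 12 of 43 genes, beside 15.3% of all genes. The smallest adjusted p were those of FAT1 (-0.45 ± 0.103, adjusted p = 0.0671), FAT4 (-0.50 ± 0.128, 0.0767) and FAT3 (-0.46 ± 0.131, 0.0817). Without replicate 1 at 10 ng/mL, 6 genes were called lower, FAT1, FAT3 and FAT4 among them, beside 10.7% of all genes in that fit. Without replicate 3, which had the most ERN2, 0 were.

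With thapsigargin, edgeR called 0 of 43 genes at 10 against 0 ng/mL and also 0 of all 14509 genes (0.0% lower, 0.0% higher). At an unadjusted p under 0.05, 7 cadherin genes were lower (2.99% of all genes), and DESeq2 called 0 (0.325% of its genes lower). Libraries with the same replicate number deviated together in this comparison, and with the replicate number as a block, 8 genes were called lower, CDH2, CELSR1, CELSR2, FAT1, FAT3, PCDH7, PCDH17 and PCDH19, beside 2.53% of all genes. Unblocked, CELSR1 had -0.45 ± 0.109 (adjusted p = 0.576), FAT3 -0.47 ± 0.142 (0.885) and FAT1 -0.47 ± 0.153 (0.972), against adjusted p of 0.000252, 0.000562 and 1.24e-05 with the block.

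Between 100 and 10 ng/mL with vehicle, 10 of 42 genes tested were called lower and 0 higher, where 2.43% of all 14549 genes were called lower and 0.0137% higher. They were PCDHGC3 (-1.34 ± 0.174, adjusted p = 0.00298), CDH1, CDH23, CELSR1 (-1.09 ± 0.140, 0.00298), PCDH17, DCHS1, CELSR2, CDH4, PCDH7 (-0.82 ± 0.116, 0.00361) and FAT1. CDH1 had -0.047 ± 0.203 from 0 to 10 ng/mL and -1.26 ± 0.217 from 10 to 100 ng/mL (adjusted p = 0.00786), and DCHS1 0.087 ± 0.155 and -0.98 ± 0.160; the 2 steps share the libraries at 10 ng/mL. None of the 10 calls held in every fit that left out a library. Without replicate 2 at 10 ng/mL or replicates 1 or 3 at 100 ng/mL, 0 cadherin genes were called. The share of all genes called in those fits was not counted, so the loss may not be particular to these genes. The summed level of all 49 genes was 1713, 1748 and 1697 CPM with vehicle and no doxycycline, 1440.1, 1499.7 and 1187 CPM at 10 ng/mL and 879.6, 832 and 862 CPM at 100 ng/mL, and with thapsigargin it was 1637, 1567 and 1453 CPM, 1399, 1347 and 1028 CPM and 607, 583 and 660.1 CPM in the same order. The third library had the lowest sum at 10 ng/mL in both treatments, where it had the most ERN2, and also at 0 ng/mL in both treatments, where it did not.

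Thapsigargin itself, without doxycycline, was accompanied by lower levels of 6 cadherin genes. At 0 ng/mL, 6 of 43 tested were called lower and 0 higher after 3 hours, where 4.74% of all 14397 genes were called lower and 6.45% higher, and the median was -0.17. PCDH20 fell from 10.3, 12.3 and 9.71 to 5.85, 4.96 and 4.44 CPM (-1.07 ± 0.174, adjusted p = 0.000966). PCDH18 fell from 13.3, 14.3 and 12.8 to 7.69, 6.78 and 7.18 CPM (-0.89 ± 0.145, adjusted p = 0.000989). CELSR2 fell from 159, 145 and 159 to 109.6, 91.6 and 90.9 CPM (-0.66 ± 0.109, adjusted p = 0.00112) and CELSR1 from 108, 99.2 and 112 to 70.1, 69.9 and 70.4 CPM (-0.59 ± 0.102, adjusted p = 0.00141). In these 4 genes no library with thapsigargin reached the lowest with vehicle. PCDHGB5 (-0.66 ± 0.156, adjusted p = 0.00881) and FAT4 (-0.57 ± 0.137, 0.00995) were also called, but each in only 1 of 6 fits that left out a library, CELSR1 in 4 (not without vehicle replicates 1 or 3), and the count was 3 without vehicle replicate 1 (2.03% of all genes). Values lay below 0 in 30 of 43 genes, beside 50.7% of all genes, and above 0 in 13. CDH11 was among those above 0: all 3 libraries with thapsigargin lay above those with vehicle, but short of a call (0.36 ± 0.112, adjusted p = 0.0352). CDH11 was called higher after correction for GC content and length. CELSR3 also rose without overlap (0.41), from 7.20, 5.59 and 6.97 to 8.77, 8.86 and 8.49 CPM, and was not called. CDH2, CDH4 and PCDHGC3 had -0.038 ± 0.0985, -0.17 ± 0.126 and -0.17 ± 0.120.

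At 10 ng/mL, edgeR called 0 of 44 cadherin genes after thapsigargin, beside 0.294% of all genes lower and 1.16% higher. At an unadjusted p under 0.05, 9 were lower (11.0% of all genes), and DESeq2 called CELSR1, CELSR2 and PCDH20 (2.94% of its genes lower). These had edgeR values of -0.65 ± 0.132, -0.62 ± 0.142 and -0.85 ± 0.200, with adjusted p = 0.0196, 0.0299 and 0.0322. At 100 ng/mL the count was 0 of 39, with 0.0208% of all genes called lower and 0.18% higher, yet 37 of 39 values lay below 0 and the median was -0.60. At an unadjusted p under 0.05, 25 genes were lower (12.3% of all genes) and 0 higher, and DESeq2 called 7 lower (3.61% of its genes): CDH4, CDH23, CELSR1, CELSR2, PCDH19, PCDHGB5 and PCDHGC3. The smallest adjusted p in edgeR were those of CDH4 (-0.98 ± 0.168, adjusted p = 0.0198), PCDH19 (-0.85 ± 0.156, 0.0235) and PCDHGC3 (-0.98 ± 0.195, 0.0299). All 3 libraries with thapsigargin lay below those with vehicle in each of these 3 genes: CDH4 measured 21.3, 24.3 and 19.8 CPM with vehicle and 12.1, 9.86 and 10.7 CPM with thapsigargin. Without thapsigargin replicate 1 at 100 ng/mL, 10 cadherin genes were called lower, beside 7.84% of all genes in that fit.

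**Figure D4:**
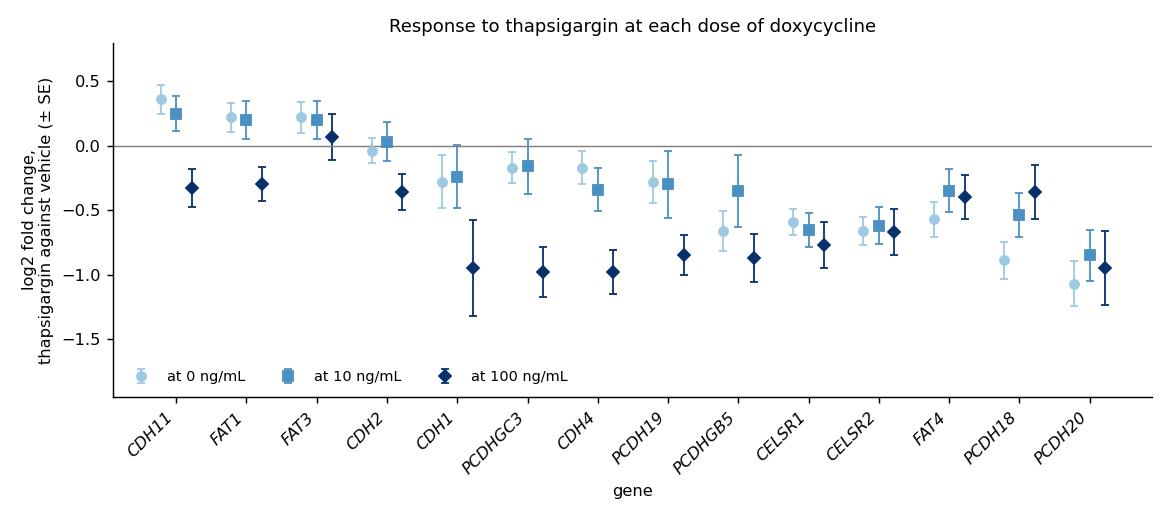
Log2 fold change between thapsigargin and vehicle (y axis, ± standard error) of 14 cadherin superfamily genes (x axis) at 0, 10 and 100 ng/mL doxycycline (light circles, squares and dark diamonds). CELSR1, CELSR2 and PCDH20 have values below -0.5 at each dose, whereas CDH11 goes from 0.36 to -0.33 and PCDHGC3 from -0.17 to -0.98.

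Whether the response to thapsigargin differed with ERN2 was tested as an interaction over 12 libraries. At 100 against 0 ng/mL, edgeR called 0 of 44 cadherin genes, beside 0.0339% of all 14768 genes lower and 0.00677% higher. At an unadjusted p under 0.05, 9 had a lower response at 100 ng/mL (9.15% of all genes) and 1 a higher one, and DESeq2 called CDH4 and CDH11 (1.72% of its genes lower). In simulated counts for this interaction, 8.26% of DESeq2 calls were false, beside 0.0% of edgeR calls. Those counts were drawn with spreads estimated by edgeR, so they do not rank the tools on the real libraries. The 3 smallest adjusted p were those of CDH11 (-0.61 ± 0.157, adjusted p = 0.0721), CDH4 (-0.72 ± 0.195, 0.0762) and PCDHGC3 (-0.72 ± 0.200, 0.0795), on the scale of a difference between log2 fold changes. Without thapsigargin replicate 1 at 100 ng/mL, CDH4 (adjusted p = 0.00836) and PCDHGC3 (0.00917) passed the threshold, beside 2.82% of all genes lower in that fit. PCDH18, with the opposite sign, had 0.62 ± 0.244 (adjusted p = 0.145). At 10 against 0 ng/mL, 0 of 45 were called (0.0% lower and 0.0% higher over all genes), 0 were lower at an unadjusted p under 0.05 (1.79% of all genes), and DESeq2 called 0 (0.00968% of its genes lower). The smallest adjusted p there belonged to CDH15, PCDH8 and PCDH18, at 0.779, 0.779 and 0.779.

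Genes that work with cadherins were read from the same fits, where 7.49% of all genes tested were called lower with vehicle and 9.0% with thapsigargin. Of 14 catenin and plaque genes, which link cadherins to the cytoskeleton, 11 were tested and 1 was called lower at 100 against 0 ng/mL with vehicle, with a median of 0.011. It was PKP2, a desmosomal plaque protein (-0.56 ± 0.123, adjusted p = 0.00783), while ARVCF (0.43 ± 0.174, adjusted p = 0.122), CTNND2 (-0.24 ± 0.127, adjusted p = 0.24) and JUP (0.18 ± 0.121, adjusted p = 0.342) did not pass. With thapsigargin the count was 1 and the median -0.21. Of 7 repressors of CDH1 transcription, 0 were called in either direction in edgeR, none with an unadjusted p under 0.05 in either treatment; TWIST1, TCF4, SNAI2 and ZEB1 had 0.30, -0.25, -0.33 and -0.20 with vehicle.

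Other genes whose proteins carry cadherin repeats were lower as well: 6 of 10 tested were called lower with vehicle and 8 of 10 with thapsigargin, with medians of -0.74 and -1.22. CLSTN2, a calsyntenin of synapses, had -2.86 ± 0.209, adjusted p = 1.54e-06, and DCHS2, the relative of DCHS1, had -1.84 ± 0.255, adjusted p = 0.000261. RET, a receptor kinase with cadherin-like domains, had -1.47 ± 0.214, adjusted p = 0.000381, and DSG2, a desmosomal cadherin, had -1.07 ± 0.134, adjusted p = 0.000113. Among 13 genes for cleavage and maturation of cadherins, 5 were called lower with vehicle and 6 with thapsigargin. Beside these lists, 30.2% and 34.5% of all tested genes with the hydrophobic segment were called lower in turn. FURIN, which removes the prodomain of classical cadherins, had -1.82 ± 0.119, adjusted p = 5.72e-07. Its relative PCSK5 had -0.94 ± 0.126, adjusted p = 0.000194, and the membrane proteases ADAM9 and ADAM15 had -0.83 ± 0.110, adjusted p = 0.000193 and -0.99 ± 0.144, adjusted p = 0.000395. Of 12 planar polarity partners, only VANGL2 was called, in each treatment (-1.01 ± 0.112, adjusted p = 4.61e-05 with vehicle), while FZD3, FZD6 and FJX1 had -0.51, -0.36 and -0.31 and did not pass.

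**Figure D5:**
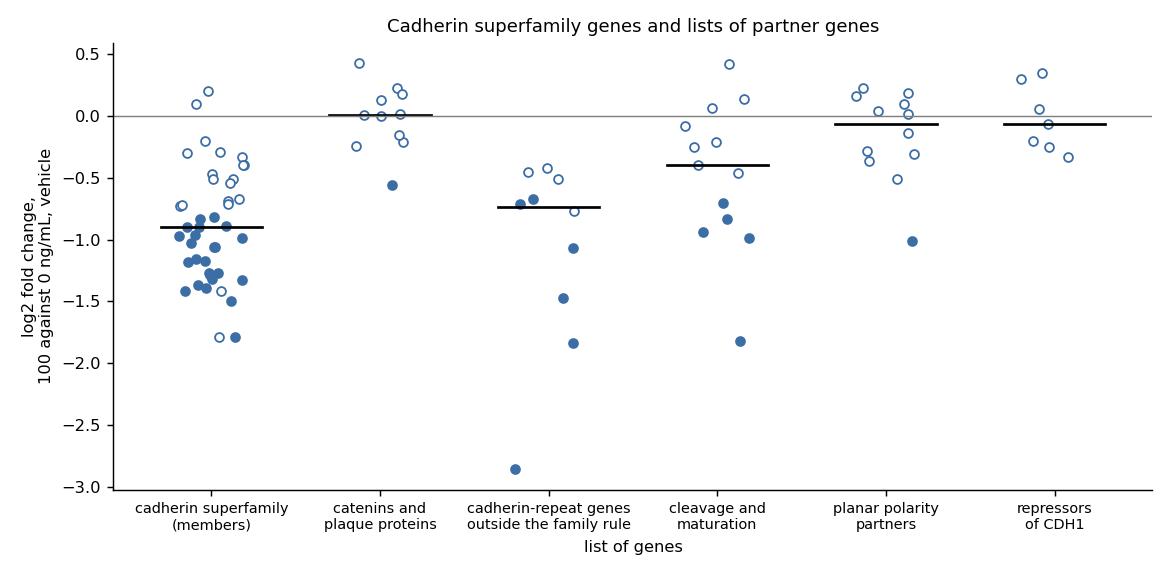
Log2 fold change between 100 and 0 ng/mL doxycycline with vehicle (y axis) of each gene tested in the cadherin superfamily and in 5 lists of partner genes (x axis); filled points passed the adjusted p threshold of 0.01 and lines are medians. The medians run from -0.90 in the cadherin superfamily and -0.74 in other cadherin-repeat genes to 0.011 in catenins and plaque genes and -0.061 in repressors of CDH1.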

How the data were processed

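RNA was sequenced from 18 libraries of HEK293doxERN2 cells, 3 in each of 6 groups. The authors prepared stranded mRNA libraries, aligned single-end reads to hg38 with STAR and deposited a table of unnormalized counts by gene symbol, with no replicates pooled. The annotation and whether counting used strand are not given in the sources used here. Libraries held 14876416 to 24652240 reads, and groups came from the sample labels. Libraries within a group lay further apart than counting noise allows (chi-square per degree of freedom 7.33 to 63.8), so no library was a copy of another. The members and lists were chosen with earlier results of these data known.

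Counts were compared with edgeR 4.0.16 in R 4.3.3 (TMM factors, filterByExpr with a minimum count of 10, quasi-likelihood test, only the groups compared in each fit, 12 libraries in an interaction). P-values were adjusted by the Benjamini-Hochberg method over all genes tested, with a threshold of 0.01, and the standard error of a log2 fold change was its size divided by the square root of F. Alternatives were DESeq2 1.42.0, relative log expression factors, no filter and a fit of all 6 groups. Others were a block for the replicate number, a threshold of 0.05 and each replicate left out. A correction of each library for GC content and transcript length was added after the data were seen (a smooth trend from R's lowess function, span 0.3). Same-numbered libraries were checked for pairing by the correlation of their deviations from the group means. All 3 correlations were over 0.1 for 10 against 0 ng/mL with thapsigargin (0.4, 0.344 and 0.468), and not in the other comparisons, so the block is given beside that result.

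In simulated counts with 200 genes changed 2-fold, edgeR recovered 91.5% of the changed genes for 100 against 0 ng/mL with vehicle (14465 genes). The changed genes were drawn only from those with a mean above 2 CPM, so recovery at lower levels was not measured. For the interaction at 100 ng/mL (14765 genes) edgeR recovered 27.0%. DESeq2 recovered 89.5% with vehicle and 55.5% for the interaction. Of the calls in these simulated counts with vehicle, 3.17% were false in edgeR and 4.28% in DESeq2. For the interaction, 0.0% of calls were false in edgeR and 8.26% in DESeq2. Counts were drawn around a single mean per gene with spreads estimated by edgeR, and only the changed genes differed between groups. The real libraries differ from this setting. Named with values were the 8 genes with the largest mean, the 12 with the smallest adjusted p for 100 against 0 ng/mL with vehicle, the 3 with the smallest adjusted p in each other comparison, CDH1 and CDH2, any gene called higher between doses, and from every partner list the 4 with the smallest adjusted p. Other genes named, such as CELSR3, CDH6, CDH7, CDH8, CDH10, CDH13 and DCHS1, were chosen after their values were seen. Symbols were matched to GENCODE 29 (49 of 49 members, 22620 of 25435 in the table). The hydrophobic segment was found in translated GENCODE coding sequences, in place of the RefSeq proteins planned. RefSeq promoters were found for 33 members. Python 3.11.15 with matplotlib 3.10.9 was used for plots.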

Additional observations from a re-analysis of the deposited data

Results flagged for a closer look

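The response of CDH11 to thapsigargin had opposite directions at 0 and 100 ng/mL doxycycline. Without doxycycline every library with thapsigargin (58.7, 53.3 and 59.9 CPM) lay above every library with vehicle (42.0, 46.4 and 46.6 CPM), and at 100 ng/mL every library with thapsigargin (28.6, 27.9 and 31.6 CPM) lay below those with vehicle (34.0, 40.4 and 38.3 CPM). The difference between the 2 log2 fold changes was -0.61 ± 0.157 (SE), with adjusted p = 0.0721 in edgeR, which missed the threshold of 0.01, and adjusted p = 0.00235 in DESeq2, which passed it. DESeq2 was the only 1 of 19 alternatives to pass, and 0 of the 12 that left out a library did. In simulated counts for this interaction, 8.26% of DESeq2 calls were false, a larger share than a threshold of 0.01 aims at. Those counts were drawn with spreads estimated by edgeR and without other effects of dose or thapsigargin. They cannot say how reliable the call of CDH11 is. Neither response by itself was called in the main edgeR fits.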

How the results depend on the processing

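Of 880 alternative values for 65 results on single genes, 818 kept their direction and their side of the threshold, 18 lost the call, 40 gained one and 4 reversed. None of those that reversed was a called gene: PCDH18 at 100 against 0 ng/mL with thapsigargin went to -0.044 after the GC and length correction and -0.042 with the replicate block added, and PCDH8 with vehicle (log2 fold change of PCDH8, 100 vs 0 ng/mL doxycycline, vehicle) ranged from -0.13 to 0.46 with 1 library left out, below 0 without replicate 3 at 0 ng/mL (-0.13) or replicate 2 at 100 ng/mL (-0.064). Called genes were lower unless stated. The counts of cadherin genes called at 100 against 0 ng/mL ranged from 19 to 29 with vehicle and from 26 to 31 with thapsigargin over the alternatives other than leaving out a library, and from 18 to 25 and 20 to 28 when 1 library was left out. For 10 against 0 ng/mL with vehicle the count of 0 became 1 with DESeq2, 1 without the filter, 2 after the GC and length correction and 2 with the replicate block added (0 to 6 with 1 library left out). For 100 against 10 ng/mL the 10 became 19 with the replicate block and 22 with the block and the correction (0 to 13). For 10 against 0 ng/mL with thapsigargin the 0 became 8 with the replicate block and 4 with the block and the correction (0 to 0). For thapsigargin at 0 ng/mL the 6 became 10 with the block and the correction, 9 lower and CDH11 higher (3 to 5, with CDH15 higher without vehicle replicate 3), and at 10 ng/mL the 0 became 3 with DESeq2, 1 without the filter, 1 in a fit of all 6 groups, 10 with the replicate block, 4 at a threshold of 0.05, 1 after the correction and 13 with the block added, 12 lower and CELSR3 higher (0 to 0). At 100 ng/mL the 0 became 7 with DESeq2, 4 without the filter, 9 in a fit of all 6 groups, 7 at a threshold of 0.05 and 9 after the correction (0 to 10). The count for the interaction at 100 ng/mL became 2 with DESeq2 and 1 with the block and the correction (0 to 2), and at 10 ng/mL it stayed at 0 when a library was left out (0 to 0). Shares of all genes called are not given here for most of these alternatives. The changes in these counts may therefore not be particular to cadherin genes, and their cause was not tested. The replicate numbers are not known to pair the libraries in any comparison. For 10 against 0 ng/mL with thapsigargin, the block rests only on correlations seen in these same data. Depth limits the genes below 1 CPM, of which 4 were tested in no comparison.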
